A study of Mus musculus with 16 samples.

Results

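The 51 mouse genes described here encode the proteins that bring fatty acids into heart muscle cells, oxidize them in mitochondria and feed the citric acid cycle. They were chosen by symbol, and all 51 were found among the 37991 genes of the deposited count table. The RNA came from the left and right ventricles of 8 C57BL/6 mouse embryos, in 16 libraries. HLHS hearts came from 3 embryos labelled so, for hypoplastic left heart syndrome, in which the left side of the heart is underdeveloped: 1 each from embryonic days E13.5, E14.5 and E17.5. Control hearts came from 5 littermates, 1 from the E13.5 litter and 2 from each of the later litters. Each stage is 1 litter, so stage and litter cannot be told apart, and the genotype behind the HLHS label is not given in the sources used here.

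The heart of an embryo runs largely on glucose and lactate, and its capacity to burn fatty acids is built up towards and after birth. Fatty acids released from lipoproteins cross the cell membrane, are bound to carrier proteins and joined to coenzyme A, and enter the mitochondrion as carnitine esters. There, repeated rounds of dehydrogenation, hydration, dehydrogenation and thiolysis (beta-oxidation) cut them to acetyl-CoA, which the citric acid cycle oxidizes together with the acetyl-CoA that pyruvate dehydrogenase makes from sugar.

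Libraries held 17081273 to 28648645 counts. Levels are given in CPM, counts scaled to a common library size by TMM, in the order E13.5, E14.5 and E17.5. The summed level of 10 cardiomyocyte markers ran from 17480 to 23360 CPM in the HLHS libraries and from 19150 to 27700 CPM in the control libraries, so all carried the RNA of heart muscle. Xist and Ddx3y, a gene active in female cells and a Y-linked gene, showed both sexes: the HLHS embryo was female and its control male at E13.5, while control embryos of both sexes were present at E14.5 and E17.5. The right ventricle of 1 male control embryo at E17.5 carried 34.7 CPM of Xist, against 1.25 CPM in its left ventricle and 779 to 1110 CPM in the right ventricles of female embryos. Leaving that embryo out changed the right-ventricle count of genes given below to 8.

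In the left ventricle, HLHS embryos had lower levels of most of the pathway. Of the 50 genes with enough reads to be tested, 32 fell at an adjusted p under 0.05 and none rose, against 6.61% lower and 6.17% higher among all 15979 genes tested. No gene of the pathway was higher at an unadjusted p under 0.05 either, nor was any called higher by DESeq2 or limma-voom. The median log2 fold change was -0.281, against 0.007 over all genes, and 49 of the 50 estimates lay below 0. In 39 of the 50, the HLHS embryo was below every littermate in all 3 litters, against 16.0% of all genes, and this held for each of the 32 genes that fell. The falls were modest in size: only Acsl1, Acadvl and Cd36 fell by more than 1.5-fold. Fewer heart muscle cells and less of these mRNAs in each cell cannot be told apart in RNA of whole ventricles.

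**Figure D1:**
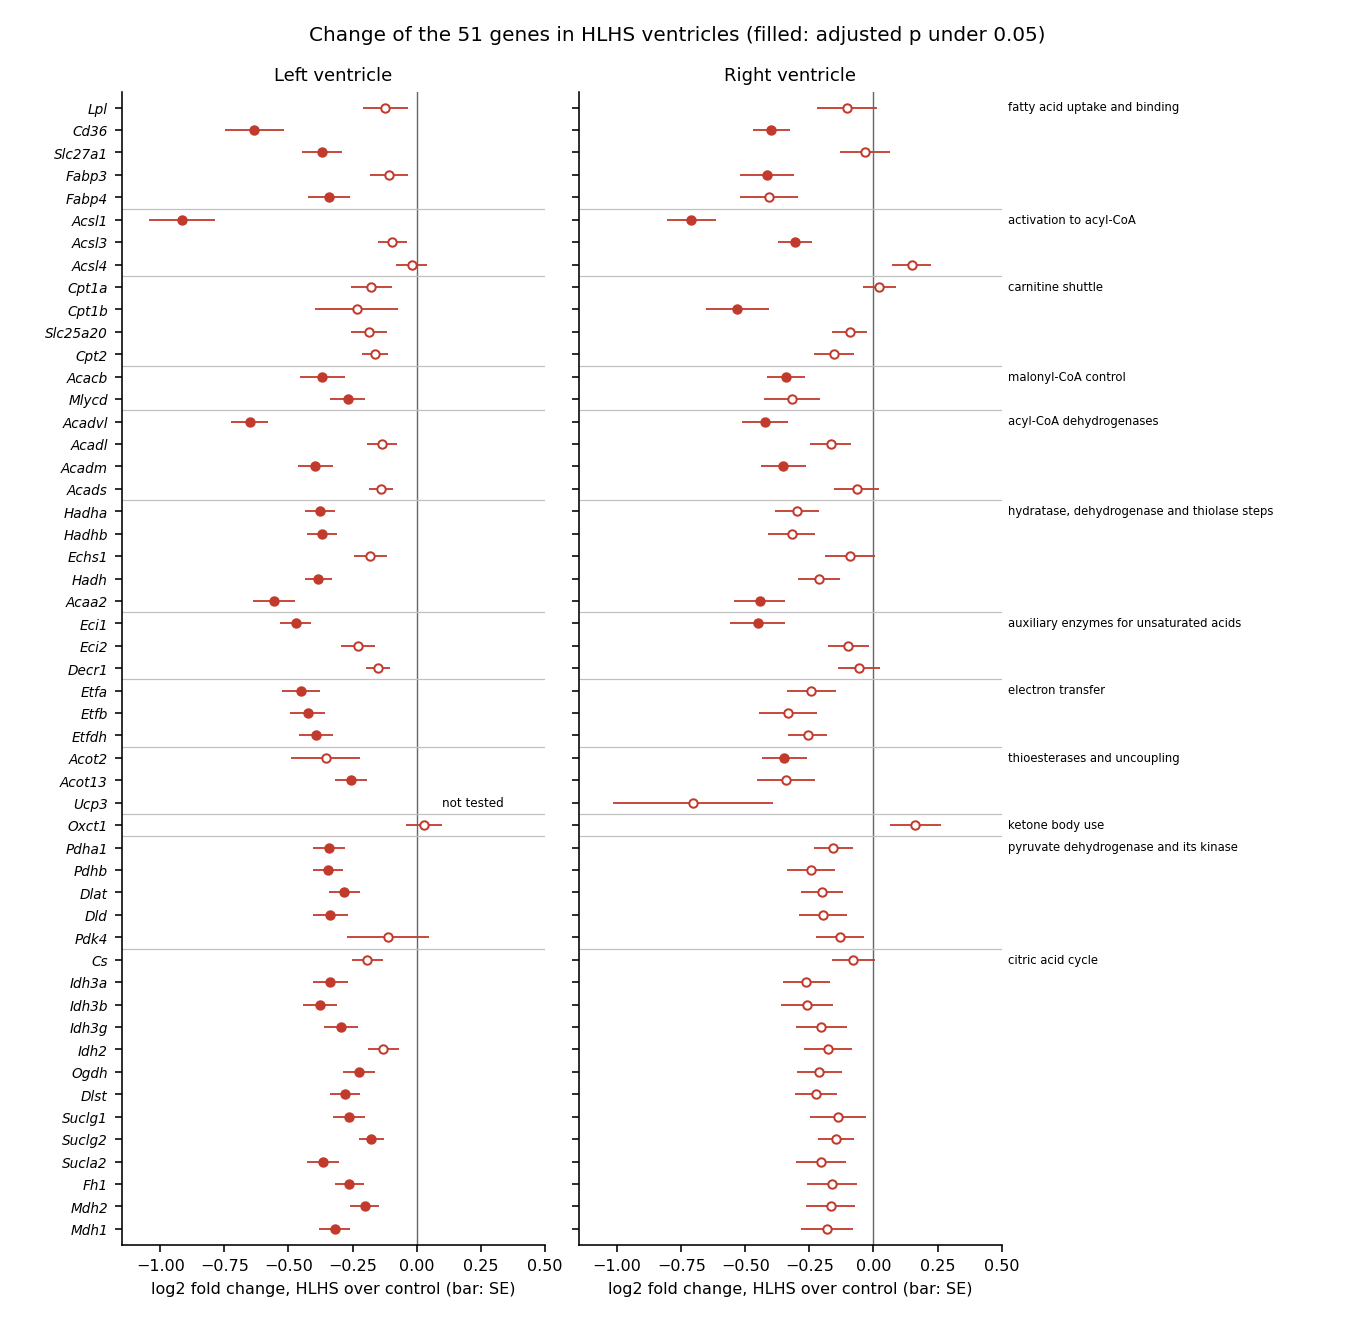
Log2 fold change of each of the 51 genes, HLHS over control, in the left and right ventricle (x axes), with genes in pathway order down the page. Bars are standard errors and filled points passed an adjusted p of 0.05: 32 genes in the left and 11 in the right ventricle, all below 0.

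Fatty acid uptake and binding was represented by 5 genes, of which 3 fell in the left ventricle. Cd36, the main membrane carrier of long-chain fatty acids into heart muscle, had 113, 160.3 and 450.5 CPM in HLHS, against 150.1, 326 and 339.9, and 608 and 587 CPM in control. The HLHS library was below its littermates at each stage, and the gap was widest at E14.5; the fall was 1.55-fold (log2 fold change -0.63 ± 0.12 (SE), adjusted p = 0.00897). Slc27a1, a transport protein that also activates the acids it carries, had 23.5, 24.2 and 39.2 CPM in HLHS, against 28.5, 29.3 and 34.3, and 55.0 and 49.1 CPM in control (log2 fold change -0.37 ± 0.08 (SE), adjusted p = 0.0172). Fabp4, a fatty acid binding protein abundant in endothelial cells and fat, had 106, 162 and 306 CPM in HLHS, against 151, 211 and 231, and 357 and 312 CPM in control (log2 fold change -0.34 ± 0.08 (SE), adjusted p = 0.0243). At E17.5 the HLHS library of Fabp4 lay just under the lower control, while at the earlier stages it was clearly apart. Fabp3, the binding protein of heart muscle itself, was the most abundant of the 51 genes per kilobase of exon in E17.5 control left ventricles, at 771 CPM per kb, and 656 CPM per kb in the HLHS left ventricle. Its left-ventricle levels were 328, 409 and 540.3 CPM in HLHS, against 349.8, 415 and 405, and 680.0 and 589 CPM in control, and at E14.5 HLHS lay between the control libraries (log2 fold change -0.11 ± 0.07 (SE), adjusted p = 0.366). Lpl, the lipase that frees fatty acids from lipoproteins, had 308, 422 and 711 CPM in HLHS, against 304, 432 and 478, and 927 and 753 CPM in control, with HLHS slightly above control at E13.5 and below both at the later stages (log2 fold change -0.12 ± 0.09 (SE), adjusted p = 0.394).

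Activation to acyl-CoA held the largest difference of all. Acsl1, the main long-chain acyl-CoA synthetase of oxidative muscle, had 65.5, 69.3 and 264 CPM in HLHS, against 119, 178 and 183, and 402 and 372 CPM in control. The HLHS level at E14.5 was under that of every control left ventricle of any stage, and the fall over the 3 litters was 1.89-fold (log2 fold change -0.92 ± 0.13 (SE), adjusted p = 0.00318). The other synthetases measured did not pass: Acsl3 had an estimate of -0.09 ± 0.06 (SE, adjusted p = 0.303) and Acsl4 of -0.02 ± 0.06 (SE, adjusted p = 0.865). Within a library the ratio of Acsl1 to Acsl3 counts was 0.559, 0.524 and 1.63 in HLHS left ventricles, against 0.933, 1.190 and 1.198, and 2.64 and 2.20 in control left ventricles. The HLHS ratio was below that of every littermate at each stage.

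The carnitine shuttle, which carries acyl groups into mitochondria, had 4 measured genes, and none passed the threshold in the left ventricle with edgeR, DESeq2 or limma-voom. At an unadjusted p under 0.05, 2 of the 4 were lower with edgeR, Slc25a20 and Cpt2, and their estimates were -0.19 ± 0.07 and -0.16 ± 0.05 (SE). Over all 15979 genes tested, 4599 had an unadjusted p under 0.05 in either direction. Cpt1a, the liver-type form of the rate-setting first enzyme, had 113, 91.5 and 110.4 CPM in HLHS, against 138, 118 and 119, and 99.95 and 106 CPM in control. HLHS was below its littermates at E13.5 and E14.5 and above both at E17.5 (log2 fold change -0.18 ± 0.08 (SE), adjusted p = 0.184). Cpt1b, the muscle form that dominates the adult heart, was scarce at all these stages, with 6.16, 3.18 and 7.59 CPM in HLHS, against 9.18, 4.31 and 4.82, and 6.6 and 6.29 CPM in control (log2 fold change -0.23 ± 0.16 (SE), adjusted p = 0.378). Per kilobase of exon, E17.5 control left ventricles had 13.51 CPM of Cpt1a and 1.91 CPM of Cpt1b. In current annotation 81.4% of the exon bases of Cpt1b also belong to the readthrough gene Gm44502, which the count table does not list, so its reads are not separable from that transcript.

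Malonyl-CoA blocks entry through carnitine palmitoyltransferase, and a gene each was measured for its making and its removal. Acacb, the acetyl-CoA carboxylase that makes it, had 135, 105 and 182 CPM in HLHS, against 198, 155 and 132, and 187 and 221 CPM in control (log2 fold change -0.37 ± 0.09 (SE), adjusted p = 0.0249). Mlycd, the decarboxylase that removes it, had 31.2, 36.3 and 41.2 CPM in HLHS, against 39.7, 46.2 and 43.0, and 49.7 and 44.0 CPM in control (log2 fold change -0.27 ± 0.07 (SE), adjusted p = 0.0345). Both fell, and in each litter the HLHS library was the lowest.

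Acyl-CoA dehydrogenases open each round of beta-oxidation, each on its own range of chain lengths. Acadvl, the very-long-chain enzyme, had 78.0, 72.0 and 154 CPM in HLHS, against 112, 126 and 133, and 241 and 217 CPM in control. Its HLHS library at E14.5 was below every control left ventricle, and the 1.57-fold fall had the smallest p of the 51 genes (log2 fold change -0.65 ± 0.07 (SE), adjusted p = 0.00116). On the reference annotation 42.9% of its exon bases overlap Dvl2 on the other strand, and whether counting used strand is not given. Acadm, the medium-chain enzyme, had 244, 237 and 487 CPM in HLHS, against 302, 345 and 351, and 613 and 590.1 CPM in control (log2 fold change -0.39 ± 0.07 (SE), adjusted p = 0.00671). The long-chain and short-chain enzymes Acadl and Acads did not pass: their estimates were -0.13 ± 0.06 and -0.14 ± 0.05 (SE), although both HLHS levels were below every littermate in the 3 litters.

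Of the 5 genes for the hydratase, dehydrogenase and thiolase steps, 4 fell. Acaa2, the mitochondrial thiolase, had 205, 238 and 438 CPM in HLHS, against 315, 392 and 410.1, and 566 and 532 CPM in control (log2 fold change -0.56 ± 0.08 (SE), adjusted p = 0.00396). Hadh, the dehydrogenase for shorter chains, had 182, 207 and 309 CPM in HLHS, against 238, 276 and 275, and 403 and 386 CPM in control (log2 fold change -0.38 ± 0.05 (SE), adjusted p = 0.00285). Hadha and Hadhb encode the subunits of the trifunctional protein, which handles long chains. Hadha had 411, 428 and 678 CPM in HLHS, against 519, 588 and 592, and 866 and 827 CPM in control (log2 fold change -0.38 ± 0.06 (SE), adjusted p = 0.00509), and Hadhb had nearly the same fold change, -0.37 ± 0.06 (SE, adjusted p = 0.00531). All of these were lowest in the HLHS library of each litter. Echs1, the short-chain hydratase, had an estimate of -0.18 ± 0.07 (SE, adjusted p = 0.104).

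Unsaturated fatty acids need extra enzymes, and of 3 measured only Eci1, the main enoyl-CoA isomerase, fell. Eci1 had 98.8, 100.02 and 157 CPM in HLHS, against 134, 152 and 156, and 207 and 194 CPM in control (log2 fold change -0.47 ± 0.06 (SE), adjusted p = 0.0021), while Eci2 and Decr1 had estimates of -0.23 ± 0.07 and -0.15 ± 0.05 (SE, adjusted p = 0.0528 and 0.0715). Electrons from the dehydrogenases pass through the electron transfer flavoprotein and its oxidoreductase to ubiquinone, and all 3 genes of that route fell by similar amounts. Etfa had 179, 209 and 332 CPM in HLHS, against 227, 316 and 321, and 462 and 402 CPM in control (log2 fold change -0.45 ± 0.07 (SE), adjusted p = 0.00574). Etfb had 177, 179.7 and 257 CPM in HLHS, against 246, 248 and 256, and 349 and 296 CPM in control (log2 fold change -0.42 ± 0.07 (SE), adjusted p = 0.00539). In current annotation 53.0% of its exon bases lie on the same strand in Gm45233, which the count table does not list, so reads from there cannot be told apart from those of Etfb. Etfdh, the oxidoreductase, had 195, 186 and 308 CPM in HLHS, against 229, 268 and 275, and 409.5 and 383 CPM in control (log2 fold change -0.39 ± 0.07 (SE), adjusted p = 0.00704). The HLHS library was the lowest of its litter in all 3, with the widest gaps at E14.5 for Etfa and Etfdh.

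Among thioesterases, which split acyl-CoA again, Acot13 had 84.4, 102 and 126 CPM in HLHS, against 94.7, 125 and 126, and 165 and 140.0 CPM in control (log2 fold change -0.26 ± 0.06 (SE), adjusted p = 0.0276). Acot2, the mitochondrial form, was below its littermates at E13.5 and E14.5 and above both at E17.5, with 30.0, 39.4 and 64.1 CPM in HLHS, against 45.9, 61.7 and 65.3, and 59.1 and 58.6 CPM in control (log2 fold change -0.35 ± 0.13 (SE), adjusted p = 0.117). Its sequence is close to that of Acot1, so their reads may be mixed. Ucp3, a mitochondrial carrier of muscle whose level follows fatty acid supply, held only 2 to 51 reads per library over both ventricles and was not tested in the left ventricle. Oxct1, which lets the heart burn ketone bodies, was the sole gene with an estimate above 0. It had 331, 496 and 543 CPM in HLHS, against 313, 456 and 436, and 596 and 597 CPM in control, with HLHS above its littermates at E13.5 and E14.5 and below them at E17.5 (log2 fold change 0.03 ± 0.07 (SE), adjusted p = 0.824).

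Pyruvate dehydrogenase, which links sugar breakdown to the cycle, fell in its 4 subunit genes measured. Pdhb had 316, 361 and 527 CPM in HLHS, against 390.2, 479 and 473, and 683 and 637 CPM in control (log2 fold change -0.35 ± 0.06 (SE), adjusted p = 0.00666). Pdha1, on the X chromosome, had 258, 247 and 426 CPM in HLHS, against 301, 334 and 318, and 556 and 548 CPM in control (log2 fold change -0.34 ± 0.06 (SE), adjusted p = 0.00814). Dld, a subunit shared with the 2-oxoglutarate dehydrogenase complex, had 207, 266 and 380.2 CPM in HLHS, against 227, 359 and 354, and 511 and 497 CPM in control (log2 fold change -0.34 ± 0.07 (SE), adjusted p = 0.0143). The fourth, Dlat, had an estimate of -0.28 ± 0.06 (SE, adjusted p = 0.0166). Pdk4, the kinase that switches the complex off when fatty acids are burned, did not pass: it had 51.5, 60.8 and 76.8 CPM in HLHS, against 69.7, 82.0 and 90.0, and 51.8 and 59.1 CPM in control (log2 fold change -0.11 ± 0.16 (SE), adjusted p = 0.691). HLHS was the lowest library of its litter at E13.5 and E14.5 and the highest at E17.5, when its level was above both controls.

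In the citric acid cycle 11 of 13 genes fell, with a median log2 fold change of -0.265 and a lowest of -0.376. Sucla2, the ATP-forming subunit of succinyl-CoA ligase, had 160.1, 212 and 315 CPM in HLHS, against 184, 286 and 288, and 432 and 407 CPM in control (log2 fold change -0.36 ± 0.06 (SE), adjusted p = 0.00704). Suclg2, its GTP-forming counterpart, had 178, 187 and 224 CPM in HLHS, against 199.6, 225 and 217, and 243 and 245 CPM in control, the smallest fall of those called (log2 fold change -0.18 ± 0.05 (SE), adjusted p = 0.0445). All 3 subunits of the NAD-dependent isocitrate dehydrogenase fell. Idh3b had 254, 244 and 373 CPM in HLHS, against 302, 338 and 339, and 509 and 461 CPM in control (log2 fold change -0.38 ± 0.07 (SE), adjusted p = 0.00744), and Idh3a, the catalytic subunit, had 325, 389 and 501 CPM in HLHS, against 385, 464 and 477, and 717 and 673 CPM in control (log2 fold change -0.34 ± 0.07 (SE), adjusted p = 0.0133). Mdh1, the cytosolic malate dehydrogenase of the malate-aspartate shuttle, had 665, 828 and 1052 CPM in HLHS, against 797, 1085 and 1018, and 1388 and 1280.5 CPM in control (log2 fold change -0.32 ± 0.06 (SE), adjusted p = 0.0109). Ogdh, the first subunit of the 2-oxoglutarate dehydrogenase complex, had 546, 514 and 697 CPM in HLHS, against 665, 573 and 553, and 829 and 860.2 CPM in control (log2 fold change -0.23 ± 0.06 (SE), adjusted p = 0.0396). Idh3g, Dlst, Suclg1, Fh1 and Mdh2 also fell, with estimates from -0.30 ± 0.07 to -0.20 ± 0.06 (SE). The others were Cs and Idh2. Cs, citrate synthase, had 655, 759.6 and 993 CPM in HLHS, against 748, 827 and 821, and 1239 and 1152 CPM in control and was lowest in HLHS in every litter, yet did not pass (log2 fold change -0.19 ± 0.06 (SE), adjusted p = 0.0711). Idh2, the NADP-dependent mitochondrial enzyme and the second most abundant of the 51 genes per kilobase, had 1473, 1265 and 1653 CPM in HLHS, against 1664, 1487 and 1421, and 1727 and 1645 CPM in control, and at E17.5 HLHS lay between the controls (log2 fold change -0.13 ± 0.06 (SE), adjusted p = 0.187).

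**Figure D2:**
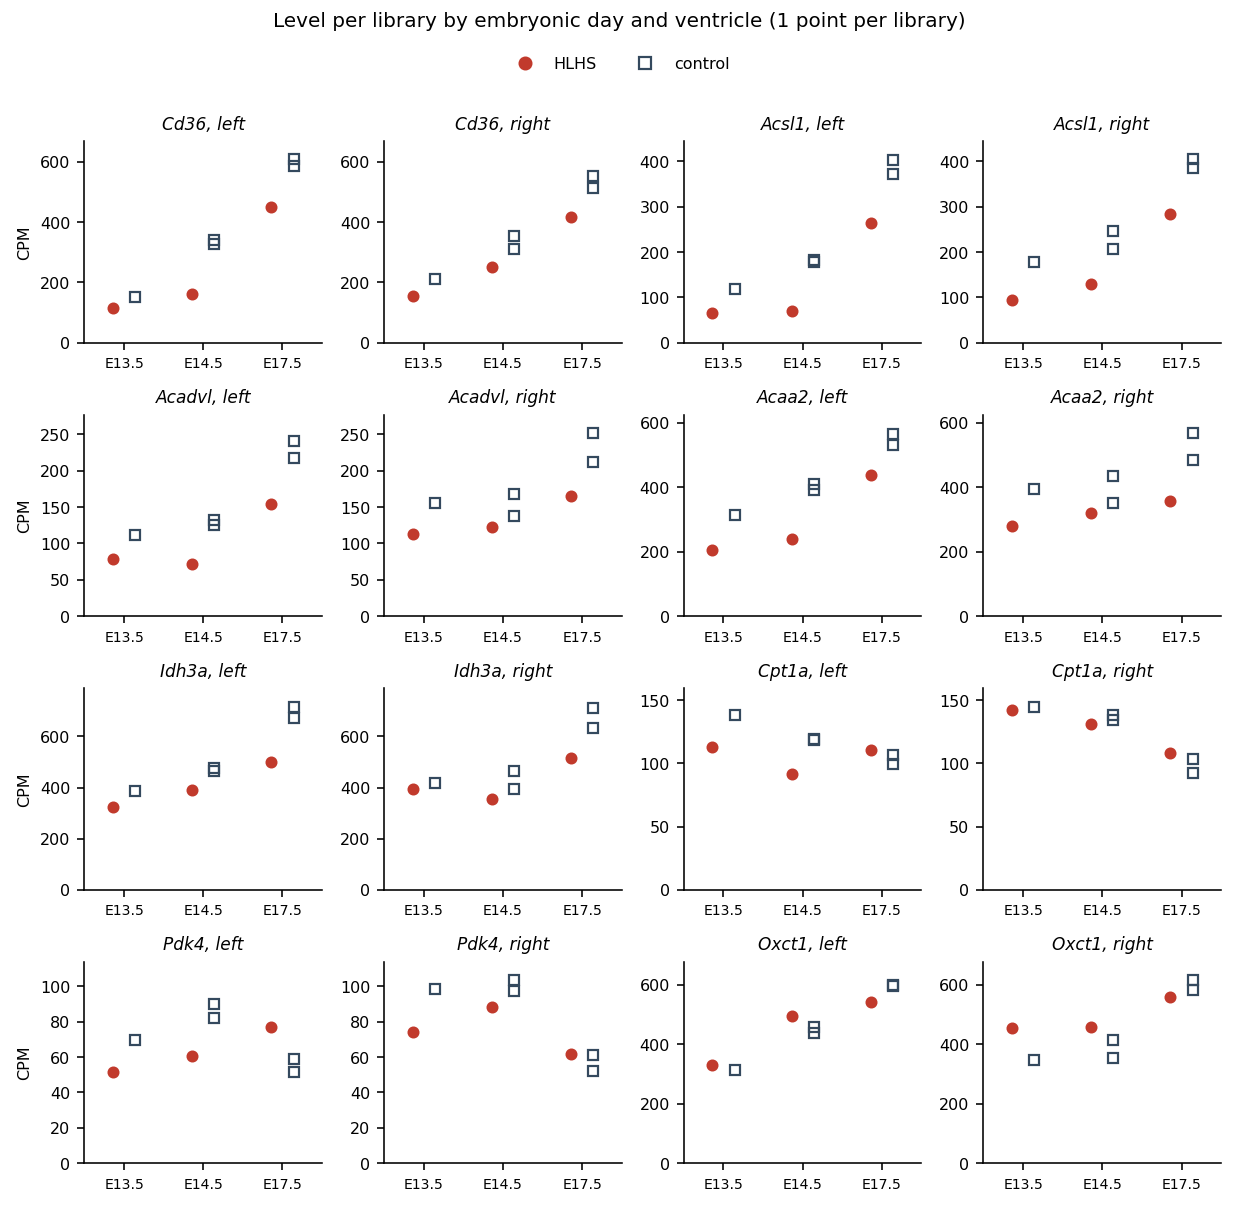
CPM of 8 genes in every library (y axes) by embryonic day (x axes), in the left and right ventricle, HLHS as filled circles and control as open squares. Cd36, Acsl1, Acadvl, Acaa2 and Idh3a are lower in HLHS in every litter on both sides; Cpt1a and Pdk4 of the left ventricle are lower in HLHS at E13.5 and E14.5 and higher at E17.5.

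Promoter sequence was read from RefSeq's GRCm38.p6, which is not the build of the count table, for the 44 genes listed there, in 52 windows from 250 bases before to 50 after a start. The estrogen-related receptors, known drivers of these genes in adult muscle, bind the 9-base motif TCAAGGTCA. On either strand it was in 0 of the 52 windows and in 0.42% of all 32851 windows. Its 7-base core AAGGTCA was in 3 windows (5.77%), those of Acacb, Acadm and Ogdh, against 4.72% of all windows, and the peroxisome proliferator-activated receptor motif AGGTCANAGGTCA was in 0 of the 52, against 0.04%. The core thus had about the share seen in all windows. Acadm and Ogdh are shown because their match lies before or at the start; it begins 249 bases before the start of Acadm and 5 bases before that of Ogdh. The windows run on the gene's strand to 10 bases past the start, and capitals mark the core, read here as its reverse complement.
Acadm, chr3:153944634-153944893, minus strand: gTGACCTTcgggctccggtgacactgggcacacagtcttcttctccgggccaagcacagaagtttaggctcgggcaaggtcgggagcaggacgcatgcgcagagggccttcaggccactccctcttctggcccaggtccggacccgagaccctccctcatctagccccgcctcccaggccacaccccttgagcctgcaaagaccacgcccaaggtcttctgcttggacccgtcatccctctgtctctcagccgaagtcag
Ogdh, chr11:6291920-6292179, plus strand: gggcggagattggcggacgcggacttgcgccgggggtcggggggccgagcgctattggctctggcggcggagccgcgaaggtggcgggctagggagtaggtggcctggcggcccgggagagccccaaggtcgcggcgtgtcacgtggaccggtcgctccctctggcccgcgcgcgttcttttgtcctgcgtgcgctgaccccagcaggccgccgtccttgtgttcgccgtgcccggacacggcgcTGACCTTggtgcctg

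In the right ventricle fewer genes passed. Of the 51 genes 11 fell and none rose, against 3.05% lower and 3.56% higher among all 16142 genes tested, with no gene higher at an unadjusted p under 0.05 and none called higher by DESeq2 or limma-voom. The median log2 fold change was -0.211, against 0.008 over all genes, and 48 estimates lay below 0. In 24 of the 51, HLHS was below every littermate in the 3 litters, against 12.8% of all genes. Of the 11, 7 also fell in the left ventricle: Cd36, Acsl1, Acacb, Acadvl, Acadm, Acaa2 and Eci1. Fabp3, Acsl3, Cpt1b and Acot2 were called in the right ventricle only.

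Acsl1 again changed most, with 94.5, 129.6 and 284 CPM in HLHS, against 177, 206 and 246, and 405 and 386 CPM in control, a 1.64-fold fall (log2 fold change -0.71 ± 0.09 (SE), adjusted p = 0.00663). Cd36 had 155, 249 and 417 CPM in HLHS, against 209, 311 and 352, and 554 and 513 CPM in control (log2 fold change -0.40 ± 0.07 (SE), adjusted p = 0.0171). Fabp3 had 271, 321 and 454 CPM in HLHS, against 388, 344 and 422, and 706 and 578 CPM in control (log2 fold change -0.42 ± 0.10 (SE), adjusted p = 0.0444). In all 3 genes HLHS was the lowest library of its litter. Acsl3, which makes acyl-CoA for lipid droplets, had 79.0, 96.0 and 112 CPM in HLHS, against 109, 115 and 122, and 122 and 135 CPM in control (log2 fold change -0.31 ± 0.07 (SE), adjusted p = 0.0289). Cpt1b had 7.13, 3.91 and 5.06 CPM in HLHS, against 9.8, 6.11 and 6.74, and 6.34 and 7.07 CPM in control (log2 fold change -0.53 ± 0.12 (SE), adjusted p = 0.0336), on 110 to 133 reads per HLHS library.

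Beta-oxidation enzymes were lower on this side as well. Acadvl had 113, 123 and 165 CPM in HLHS, against 156, 138 and 168, and 252 and 211 CPM in control (log2 fold change -0.42 ± 0.09 (SE), adjusted p = 0.0267), and Acadm had 297, 306 and 437 CPM in HLHS, against 387, 331 and 396, and 621 and 555 CPM in control (log2 fold change -0.35 ± 0.09 (SE), adjusted p = 0.0428). Acaa2 had 281, 319 and 359 CPM in HLHS, against 393, 352 and 436, and 569 and 485 CPM in control (log2 fold change -0.44 ± 0.10 (SE), adjusted p = 0.0316), and Eci1 had 112, 118 and 124 CPM in HLHS, against 153, 125 and 158, and 212 and 175 CPM in control (log2 fold change -0.45 ± 0.11 (SE), adjusted p = 0.0379). HLHS was the lowest of its litter each time, though at E14.5 it lay close to the lower control. Acacb had 192, 145 and 165 CPM in HLHS, against 239, 207 and 192, and 178 and 211 CPM in control (log2 fold change -0.34 ± 0.07 (SE), adjusted p = 0.0279), and Acot2 had 48.0, 59.5 and 52.0 CPM in HLHS, against 72.3, 70.4 and 80.7, and 60.9 and 56.4 CPM in control (log2 fold change -0.35 ± 0.09 (SE), adjusted p = 0.0446). None of the 13 citric acid cycle genes passed with edgeR or limma-voom and 1, Idh3a, passed with DESeq2. At an unadjusted p under 0.05, 4 of them were lower with edgeR, and the median over the 13 was -0.183. None of the 5 pyruvate dehydrogenase genes passed with any of these tools, with 2 lower at an unadjusted p under 0.05. Of the 3 electron transfer genes none passed with edgeR or limma-voom and 2 with DESeq2, and all 3 were lower at an unadjusted p under 0.05. Over all 16142 genes tested with edgeR, 3795 had an unadjusted p under 0.05 in either direction.

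The right-ventricle count rests on single libraries. Leaving out 1 embryo at a time gave 1 to 19 genes: 1 without the E13.5 control or without any of the HLHS embryos, 2 and 3 without the second E14.5 or second E17.5 control, and 19 without the first E14.5 control. Acsl1 was the gene that remained in every one of these fits. With the sex of the embryo as a term, an alternative added after the data were seen, 2 genes were left, Cd36 and Acsl1, and in the left ventricle 31. In the left ventricle leaving out 1 embryo gave 21 to 32 genes, with 21 without the first E14.5 control and without the E14.5 HLHS embryo.

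Control littermates themselves differed in the right ventricle. The first E14.5 control had lower levels than the second in 47 of the 51 genes, with a median difference in log2 CPM of -0.24, and the first E17.5 control had higher levels than the second in 44, with a median of 0.17. Over all 16142 genes tested these medians were 0.008 and -0.028. The corresponding left-ventricle medians were -0.01 and 0.09, against 0.004 over all genes tested at each stage. Within litters, the median HLHS-minus-control difference over the 50 genes tested in the left ventricle came to -0.255 in the E13.5 litter, -0.381 in the E14.5 litter and -0.268 in the E17.5 litter, larger than the median size of the difference between control littermates, 0.043 at E14.5 and 0.096 at E17.5. In the right ventricle it was -0.224, -0.15 and -0.309 over 51 genes, against 0.24 and 0.171 for the full gap between control littermates. At E14.5 the HLHS right ventricle was below the mean of its controls in 42 of the 51 genes, against 7852 of all 16142 genes tested. At E17.5 it was below that mean in 48, against 7757 of 16142. Set against each control, HLHS at E14.5 was below both in 29 of the 51, above both in 6 and between them in the others. The share of all genes below or above both controls was not taken, so nothing is read from these counts.

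**Figure D3:**
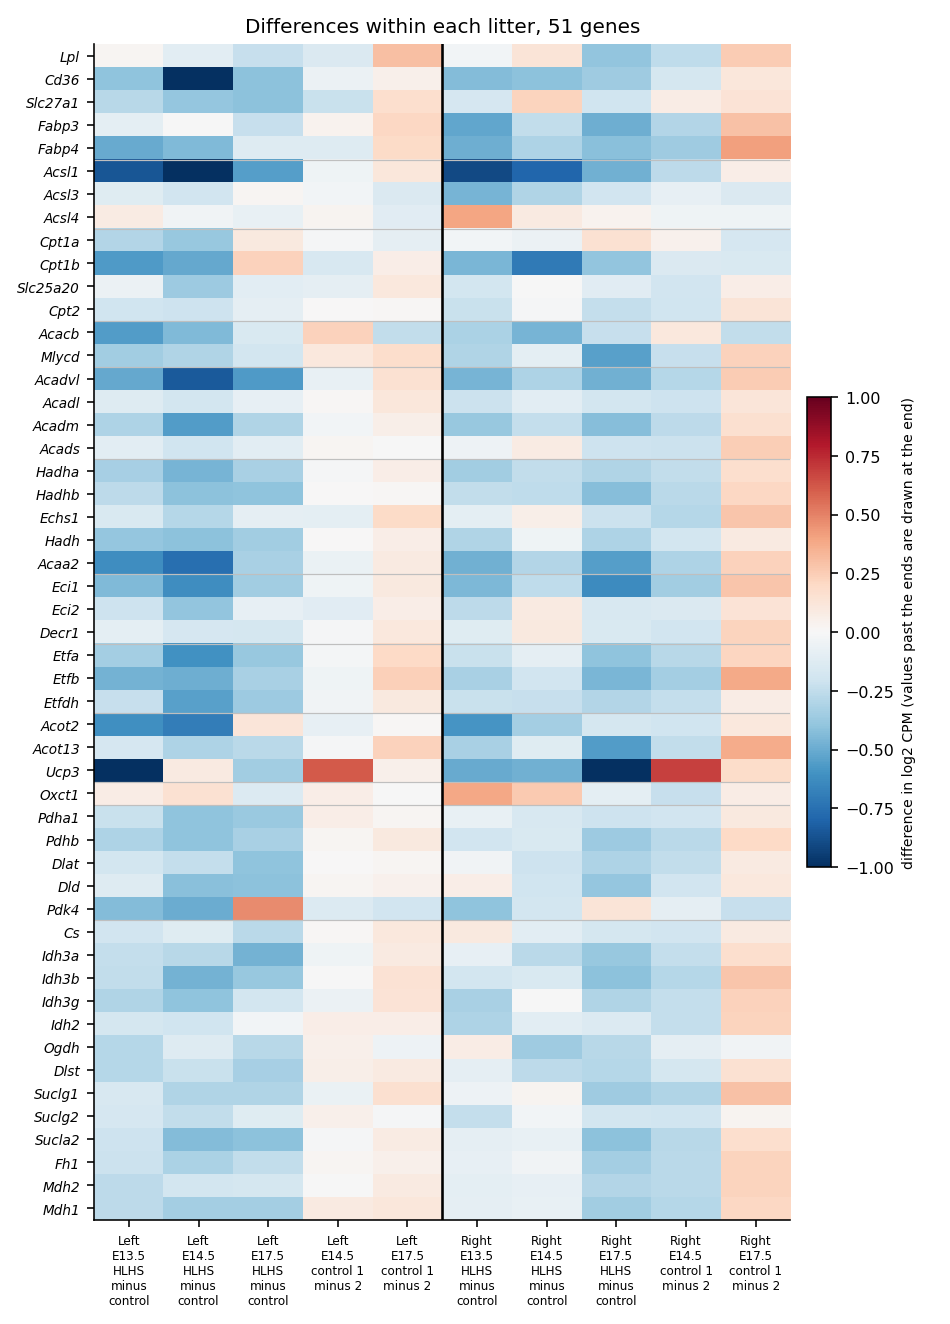
Differences in log2 CPM of each of the 51 genes (rows, in pathway order) within each litter, HLHS minus the mean of its control littermates and, beside it, the first minus the second control. In the left ventricle the HLHS columns are mostly blue and the control columns mostly pale; in the right ventricle the control columns are coloured in most rows, with medians of -0.24 at E14.5 and 0.17 at E17.5.

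Markers of heart muscle and other cells also moved. Over all genes tested, 6.61% were called lower and 6.17% higher on the left, and 3.05% and 3.56% on the right. In the left ventricle 2 of 10 cardiomyocyte markers, Tnni3 and Pln, fell and none rose, with a median of -0.078; their summed level was 22438, 21332 and 23356 CPM in HLHS, against 24653, 20713 and 19152, and 26442 and 25679 CPM in control. At E13.5, where there was 1 control, and at E17.5, where there were 2, HLHS was below its littermates in 9 of the 10. Of all 15979 genes tested, HLHS was below the E13.5 control in 7413 and below the E17.5 control mean in 7869. The mean is a looser bar than the 2 controls of E17.5 used for the markers. At E14.5 it was below both controls in 3, Tnnt2, Tnni3 and Pln, and above both in 5, among them Ttn with 4270 CPM in HLHS, against 3103 and 2559 CPM in control. Without Ttn the sum at E14.5 was 17062 CPM in HLHS, between the 17610 and 16592 CPM of the controls. Of 9 red cell markers tested 6 rose, with a summed level of 216.7 to 489.9 CPM in HLHS, against 131.1 to 302.4 CPM in control. Endothelial markers fell in 3 of 10 and fibroblast markers in 5 of 10; their summed levels were 1276 to 1679 and 3833 to 4586 CPM in HLHS, against 1565 to 1773 and 4416 to 5614 CPM in control. In the right ventricle 3 of 10 cardiomyocyte markers fell and the median was -0.297, below the pathway's -0.211; the summed level was 17482 to 22874 CPM in HLHS, against 20960 to 27704 CPM in control. Fibroblast markers there rose in 1 of 10. Their sums were 5331, 6167 and 7181 CPM in HLHS, against 3066, 6174 and 4836, and 5697 and 6104 CPM in control. At E14.5 the HLHS sum lay between those of the controls. Smooth muscle markers were mixed in the left ventricle, 2 of 6 higher and 2 lower. Their sums were 2244, 3009 and 1507 CPM in HLHS, against 1629, 1483 and 1609, and 1497 and 1333 CPM in control. At E17.5 the HLHS sum was close to that of the higher control. Summed adipocyte markers were at most 13.04 CPM in any library. The part that these markers have in the pathway's differences was not tested.

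The HLHS effect itself did not differ detectably between the ventricles. Of the 51 genes none passed in a test of the difference, left minus right, over all 16 libraries with edgeR, and none with DESeq2 or limma-voom. Over all 16508 genes 0% were called higher and 0.0182% lower. At an unadjusted p under 0.05 there were 4 genes of the pathway, against 1411 of all 16508 genes, about the same share. Slc27a1 had -0.34 ± 0.15 and Acsl4 -0.19 ± 0.08 (SE), the effect being more negative on the left. Fabp3 had 0.29 ± 0.10 and Acsl3 0.20 ± 0.07 (SE), the effect being more negative on the right. The smallest adjusted p was 0.419, for Fabp3. The median SE of these differences was 0.123, and 43 of the 51 estimates were below 0. The larger number of genes called in the left ventricle is therefore not a shown difference between sides.

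Between the ventricles of the same heart, few of the genes differed. In the 5 control hearts 2 genes were higher on the left and 1 lower, against 2.09% and 4.01% of 16238 genes. In the 3 HLHS hearts 2 were higher on the left and none lower, against 1.15% and 2.89% of 15771 genes. No gene of the pathway was called lower by limma-voom and 2 by DESeq2. At an unadjusted p under 0.05 with edgeR, 10 were lower and 3 higher, against 2521 of all 15771 genes in either direction. The estimates leaned the other way from the calls in HLHS hearts: 44 of 51 were below 0, lower on the left, with a median of -0.15, against 0.015 over all genes. In control hearts 33 of 51 were below 0, with a median of -0.046, against -0.005 over all genes. Of the cell type markers in HLHS hearts, 4 of 9 red cell markers tested were higher on the left and 1 lower, and 5 of 10 fibroblast markers were lower, while none of 10 cardiomyocyte markers passed and their median was 0.113. Their part in the pathway's side differences was not tested.

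Acsl3 in HLHS hearts had 117, 132 and 162 CPM on the left, against 79.0, 96.0 and 112 CPM on the right (log2 fold change 0.54 ± 0.08 (SE), adjusted p = 0.00713). In control hearts it had 127, 149.7 and 153, and 152 and 169 CPM on the left, against 109, 115 and 122, and 122 and 135 CPM on the right (log2 fold change 0.32 ± 0.04 (SE), adjusted p = 0.00292). The left level was higher in 3 of 3 HLHS and 5 of 5 control hearts.

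Fabp4 was likewise higher on the left in all 3 HLHS and all 5 control hearts, with log2 fold changes of 0.48 ± 0.09 and 0.38 ± 0.08 (SE, adjusted p = 0.0174 and 0.0176). Its values by library were given above for the left ventricle; on the right they were 70.9, 128 and 222 CPM in HLHS, against 99.4, 139.7 and 179, and 341 and 257 CPM in control. Ucp3 had 0.376, 0.403 and 0.234, and 0.125 and 0.118 CPM on the left of control hearts, against 1.17, 1.95 and 1.18, and 0.313 and 0.266 CPM on the right (log2 fold change -1.92 ± 0.27 (SE), adjusted p = 0.00277). In HLHS hearts the estimate was -1.74 ± 0.50 (SE, adjusted p = 0.109), and in none of the 8 hearts was the left level above the right, on few reads. Control libraries held 3 to 10 reads of Ucp3 on the left, against 7 to 51 on the right. The gene passed the count filter mainly through the right libraries, so the size of this difference is uncertain. Other genes with small p did not pass. In HLHS hearts, Acsl1 and Acadvl had left-over-right estimates of -0.49 ± 0.14 and -0.44 ± 0.12, and Fabp3 of 0.31 ± 0.09 (SE). In control hearts, Acsl1, Lpl and Pdk4 had -0.25 ± 0.08, -0.22 ± 0.07 and -0.20 ± 0.07 (SE). Without the E17.5 HLHS heart, 12 genes passed in HLHS hearts, 10 of them lower on the left, and without the E13.5 one 1 passed.

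**Figure D4:**
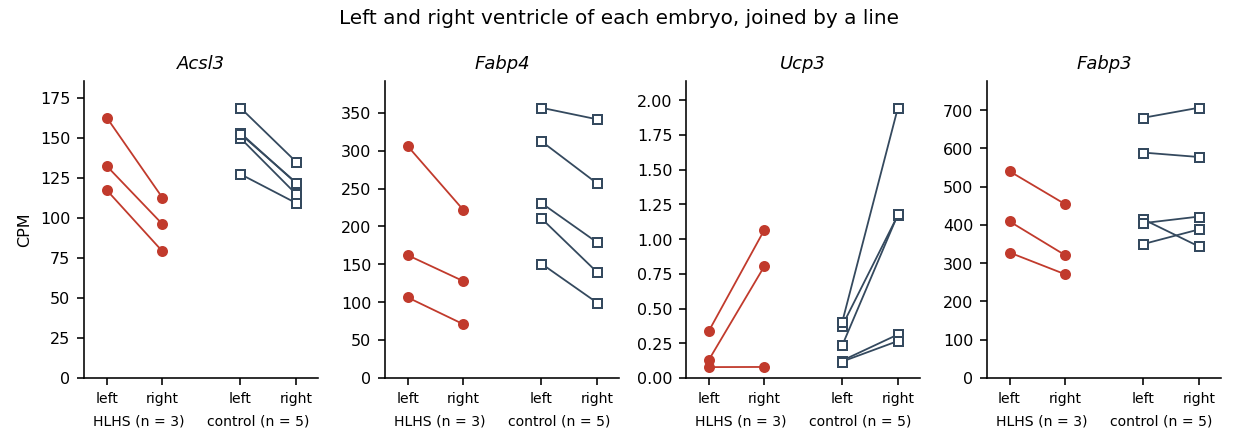
CPM of Acsl3, Fabp4, Ucp3 and Fabp3 (y axes) in the left and right ventricle of each heart, joined by a line, HLHS hearts as filled circles and control hearts as open squares. Acsl3 and Fabp4 slope down from left to right in all 8 hearts and Ucp3 is low throughout, at most 1.95 CPM.

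With stage, control hearts gained most of the pathway. Between E17.5 and E14.5, over 2 embryos at each stage with both ventricles summed, 37 of the 51 genes were higher at E17.5 and 3 lower, against 15.8% and 14.1% of 16823 genes, with a median log2 fold change of 0.47, against -0.007 over all genes. Acsl1 had the smallest p. Its control levels were 402 and 372 CPM on the left and 405 and 386 CPM on the right at E17.5, against 178 and 183 and 206 and 246 CPM at E14.5 (log2 fold change 0.96 ± 0.08 (SE), adjusted p = 0.0011). Cd36 rose by 0.78 ± 0.08, Lpl by 0.98 ± 0.12, Acadm by 0.76 ± 0.09 and Pdha1 by 0.69 ± 0.08 (log2 ± SE, with adjusted p = 0.00183, 0.0027, 0.00221 and 0.00197).

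All 5 uptake and binding genes, all 4 acyl-CoA dehydrogenases, all 5 hydratase, dehydrogenase and thiolase genes and all 3 electron transfer genes rose with stage, as did Oxct1 and 11 of 13 citric acid cycle genes, the exceptions being Idh2 and Suclg2. So did the 4 pyruvate dehydrogenase subunit genes, Eci1, Decr1 and Acot13. Of the 4 carnitine shuttle genes Cpt1a fell (log2 fold change -0.33 ± 0.06 (SE), adjusted p = 0.00889), and Cpt1b, Slc25a20 and Cpt2 did not pass, with estimates of 0.28 ± 0.12, 0.10 ± 0.07 and 0.16 ± 0.07 (SE). Neither Acsl3 nor Acsl4 passed, and neither did Acacb or Mlycd. Pdk4 fell, with 51.8 and 59.1 CPM on the left and 52.0 and 61.1 CPM on the right at E17.5, against 82.0 and 90.0 and 97.1 and 103 CPM at E14.5 (log2 fold change -0.72 ± 0.09 (SE), adjusted p = 0.00223). Ucp3 fell too (log2 fold change -2.13 ± 0.40 (SE), adjusted p = 0.00963), but on few reads. Its control libraries held 3 to 8 reads each at E17.5, against 7 to 51 at E14.5. Ucp3 passed the count filter mainly through the E14.5 embryos, so its call and the size of its fall are uncertain. Muscle markers moved with stage as well: 7 of 10 cardiomyocyte markers rose and none fell, with a median of 0.358, against the pathway's 0.47. Their summed level in control hearts was 26442 and 25679 CPM on the left and 27339 and 26142 CPM on the right at E17.5, against 20713 and 19152, and 20960 and 22771 CPM at E14.5. Of 10 red cell markers 6 fell and none rose, with a median of -1.108. The part of these markers in the pathway's stage differences was not tested. The stages are single litters, so the p-values measure the spread between littermates.

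**Figure D5:**
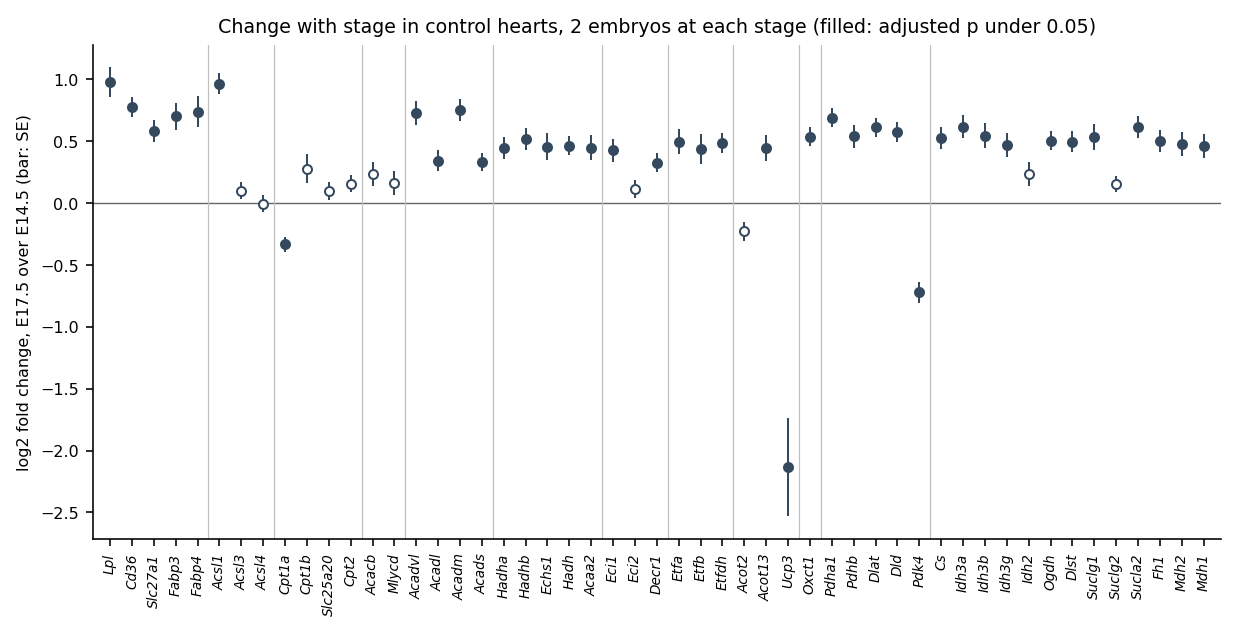
Log2 fold change of each of the 51 genes, E17.5 over E14.5, in control hearts (y axis), in pathway order (x axis), with standard errors; filled points passed an adjusted p of 0.05. Most genes lie above 0, with a median of 0.47, and Cpt1a, Pdk4 and Ucp3 are the filled points below 0, Ucp3 on few reads.

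The stage and HLHS comparisons share the E14.5 and E17.5 control libraries, so their estimates are set side by side for a few genes and no relation between them was tested. Acsl1 had -0.92 ± 0.13 in HLHS over control left ventricles and 0.96 ± 0.08 with stage, and Acadvl had -0.65 ± 0.07 and 0.73 ± 0.10 (SE). Lpl had -0.12 ± 0.09 and 0.98 ± 0.12, and Oxct1 0.03 ± 0.07 and 0.54 ± 0.08 (SE).

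Neighbouring genes of the pathway were counted from lists that hold none of the 51. For each list, the shares over all genes tested were 6.61% lower and 6.17% higher on the left. On the right they were 3.05% lower and 3.56% higher, and some list counts are near these shares. Of 13 regulators of energy genes 6 fell in HLHS left ventricles and 3 in right ventricles, and the rest did not pass. Perm1, a muscle regulator that acts with the estrogen-related receptors, fell by 1.35 ± 0.07 on the left and 0.88 ± 0.08 on the right (log2 ± SE), and Ppara, the fatty acid sensing nuclear receptor, fell by 0.93 ± 0.11 and 0.63 ± 0.14. On the left Klf15 fell by 0.60 ± 0.10 and Esrra, an estrogen-related receptor, by 0.32 ± 0.05. Of 18 respiratory chain genes 13 fell on the left and 2 on the right, led by Cox7a1 at -0.70 ± 0.08 and Cox6a2 at -0.49 ± 0.06 on the left, muscle forms of cytochrome oxidase subunits, with Ndufs1, of complex I, at -0.37 ± 0.06 (log2 fold change ± SE).

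Of 23 other pyruvate and citric acid cycle genes tested, 9 fell and 3 rose on the left, and 1 fell and 2 rose on the right. Got1, the cytosolic aspartate aminotransferase, had -0.46 ± 0.06, Mpc2, a subunit of the mitochondrial pyruvate carrier, -0.46 ± 0.07, and Sdha, of succinate dehydrogenase, -0.38 ± 0.06 on the left (SE). Idh1, the cytosolic isocitrate dehydrogenase, rose on both sides, with 0.25 ± 0.05 on the left and 0.30 ± 0.06 on the right (SE). Other lipid genes were mixed: of 33 tested, 5 fell and 1 rose on the left and 3 fell and 2 rose on the right, and their left median was -0.02. Plin5, a lipid droplet protein of oxidative tissue, had -1.55 ± 0.25 on the left and -1.28 ± 0.23 on the right, and Crat, carnitine acetyltransferase, -0.40 ± 0.05 and -0.38 ± 0.08 (SE).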

How the data were processed

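RNA-seq read counts per gene, made by the authors, were deposited in 1 table of 37991 genes. The submitters' processing notes name TopHat2 2.0.9, HTSeq 0.5.4p5, Picard, edgeR 3.4.2 and build mm9. Neither strand use nor duplicate removal nor annotation is given there, so reads of overlapping or near-identical genes may be mixed. Symbols matched 32919 genes (86.65%).

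Here edgeR 4.0.16 in R 4.3.3 was used (TMM scaling, a minimum count of 10 and total of 15, quasi-likelihood tests, Benjamini-Hochberg adjustment over all genes, threshold 0.05), after recovery of known changes was tested on simulated data. Ventricles of HLHS and control embryos were compared with the stage (the litter) as a term; left and right within embryos; and E17.5 with E14.5 in controls on summed ventricles. Replicate numbers mark the embryo, per the labels, so they pair its ventricles. Litter differences are of log2 CPM with a prior count of 2. No pair of libraries of the same phenotype and ventricle agreed within sampling noise, and other pairs were not compared. The genes and lists were chosen with earlier results of these data known. Genes described with every library's value were the 3 with the smallest left-ventricle p in each step, those called in the right ventricle, and a set chosen for their roles; the 6 with the smallest p were named for side and stage.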

Additional observations from a re-analysis of the deposited data

Results flagged for a closer look

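In 4 of 102 tests, 1 of the 5 control libraries of a ventricle stood apart from the rest by Dixon's criterion at 0.71; the 5 mix 3 stages, and chance alone gives about 1 in 20. Acsl4 was low in the E13.5 control, at 41.17 CPM in the left ventricle, next lowest 61.63, and at 38.95 CPM in the right ventricle, next lowest 57.6. Cpt1b was high in the E13.5 control right ventricle, at 9.796 CPM, next highest 7.074. Suclg2 was low in the first E14.5 control right ventricle, at 186 CPM, next lowest 214.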

How the results depend on the processing

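No call reversed its direction under any alternative run. Without the litter (no replicate block), no gene of the pathway passed in either ventricle, against 32 and 11 with it; the embryo block left the left-over-right counts within 1.5 times. In the left ventricle, the other alternatives gave 31 to 35 genes, and leaving out 1 embryo 21 to 32; 18 of the 32 genes passed in all of these. In the right ventricle DESeq2 gave 18, no count filter 16, the sex term 2 and leaving out 1 embryo 1 to 19, and Acsl1 passed in all. For the difference between sides in the HLHS effect, 0 passed throughout. In control hearts, left against right gave 5 with DESeq2 and 2 to 3 leaving out 1 embryo, against 3; in HLHS hearts it gave 5 with DESeq2, 5 with no count filter and 1 to 12 leaving out 1 embryo, against 2. The stage comparison gave 31 to 43, against 40, with 31 in right ventricles alone. No paired analysis was possible between stages because the embryos differ. Each HLHS group holds 1 embryo per litter, which limits the precision, and at E13.5 sex and phenotype cannot be told apart.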
